A study of Mus musculus with 6 samples.

Results

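Lipolysis, the stepwise release of fatty acids from stored triglyceride, was followed through 10 genes in induced brown adipocytes of U-IRX3ov and control mice. The 10 were taken by symbol from the 46095 rows of a table of read counts per gene: the lipase genes Pnpla2, Lipe, Mgll, Abhd6 and Pnpla3, the coactivator gene Abhd5, the inhibitor genes G0s2 and Hilpda, and the carboxylesterase genes Ces1d and Ces1f. All 10 were found, and all 10 passed the filter on low counts. RNA sequencing gave 3 control and 3 U-IRX3ov libraries. In both groups the cells came from C57BL/6 mice aged 5 weeks, from the stromal vascular fraction of brown fat, that is the preadipocytes and other cells of the pad without its mature fat cells. Both groups were induced for 8 days, first 2 days with the phosphodiesterase inhibitor IBMX (0.5 mM), dexamethasone at 1 µM, insulin at 5 µg/mL, and 1 µM each of triiodothyronine and rosiglitazone, then 6 days without IBMX and dexamethasone. The name U-IRX3ov stands for a genotype that overexpresses IRX3, titled KI in the library names. Neither the transgene and what drives it, nor the controls' genotype beyond that word, nor whether libraries of a group came from separate mice or cultures, is stated in the labels. The p-values therefore measure the spread between these libraries, which may be technical.

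In fat cells, triglyceride sits in lipid droplets coated by perilipins. The enzyme ATGL, encoded by Pnpla2, removes the first fatty acid, hormone-sensitive lipase (Lipe) the second and monoacylglycerol lipase (Mgll) the last, which leaves glycerol. ATGL needs the coactivator ABHD5, which perilipin 1 holds until beta-adrenergic signalling through cyclic AMP and protein kinase A sets it free, and it is inhibited by G0S2 and HILPDA. In brown fat the released fatty acids are both the fuel for heat and the activators of the uncoupling protein UCP1.

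Libraries held 20094799 to 26755870 counts, and CPM values are each gene's counts relative to its library's total after TMM scaling. Mitochondrial mRNAs took 5.16% to 5.69% of counts in control and 7.33% to 7.78% in U-IRX3ov libraries, and the 10 genes with the most counts 9.56% to 10.0% and 13.6% to 14.2%. Irx3, the gene named in the genotype, had 131 to 142 raw counts in control and 114 to 163 in U-IRX3ov libraries, and its log2 fold change of 0.27 ± 0.13 (SE) did not pass (edgeR adjusted p = 0.112). It is not known if transcripts of the transgene were counted under that symbol. The 12 adipocyte markers summed to 32306 to 33224 CPM in control and 41495 to 43178 CPM in U-IRX3ov libraries, and 11 of the 12 rose. Preadipocyte and fibroblast markers summed to 7095 to 7247 CPM in control and 4258 to 4608 CPM in U-IRX3ov libraries, and 12 of 13 tested fell. Macrophage and leukocyte markers summed to 453 to 557 and to 146 to 220.2 CPM, and 11 of 11 tested fell. Endothelial markers summed to 22.6 to 26.8 and to 43.5 to 49.0 CPM, and 5 of 8 rose. Pericyte and smooth muscle markers summed to 4561 to 4800.2 and to 2852 to 3167 CPM, with 5 of 8 lower and 2 higher. Brown adipocyte markers summed to 261 to 267 and to 702 to 798 CPM, with 8 of 10 higher and 2 lower. Markers counted here as higher or lower passed edgeR adjusted p under 0.05, as did 20.2% (higher) and 21.1% (lower) of all 14757 genes tested. No marker of these 6 lists was at 0 in all libraries. In bulk RNA, a change in the number of cells of a type and a change in RNA per cell cannot be told apart, and the part of cell makeup or of these library traits in the results below was not tested.

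Of the 10 genes, 7 rose in U-IRX3ov cells, 0 fell and 3 did not pass (edgeR quasi-likelihood test, adjusted p under 0.05 over all 14757 genes tested). Among all genes tested 41.3% passed, 20.2% higher and 21.1% lower. The median log2 fold change of the 10 was 0.39, beside a median of -0.005 over all genes tested. The groups did not overlap in CPM for 8 of the 10 genes, which was so for 50.8% of all genes tested. These directions are relative to the whole library. When libraries were scaled instead to the summed counts of the 12 adipocyte markers, the median of all genes moved to -0.37, 5 of the 10 were higher (Pnpla3, Hilpda, Ces1d, Lipe and G0s2) and 5 lower (Mgll, Abhd6, Ces1f, Pnpla2 and Abhd5). That sum weighs abundant markers most, such as Fabp4 (12693 CPM in control, 18682 in U-IRX3ov) and Gpd1 (3656 and 5668). By TMM, Adipoq (0.17), Cd36 (0.18), Cebpa (0.18), Cidec (0.15) and Lpl (0.05) rose less on the log2 scale than Pnpla2 (0.24) and Abhd5 (0.28). Car3 (0.24) was level with Pnpla2. Gpd1 (0.63), Pparg (0.61), Fabp4 (0.56), Plin1 (0.40), Retn (0.66) and Cfd (0.52) rose more than both. Of all genes tested 71.3% passed under that scaling, 4.72% higher and 66.6% lower. Relative to that shifted median, Pnpla2 stood at 0.245 and Abhd5 at 0.284, against 0.245 and 0.285 under TMM scaling. Rescaling libraries shifts all genes by nearly the same amount, so this match was fixed in advance and is no separate evidence.

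**Figure D1:**
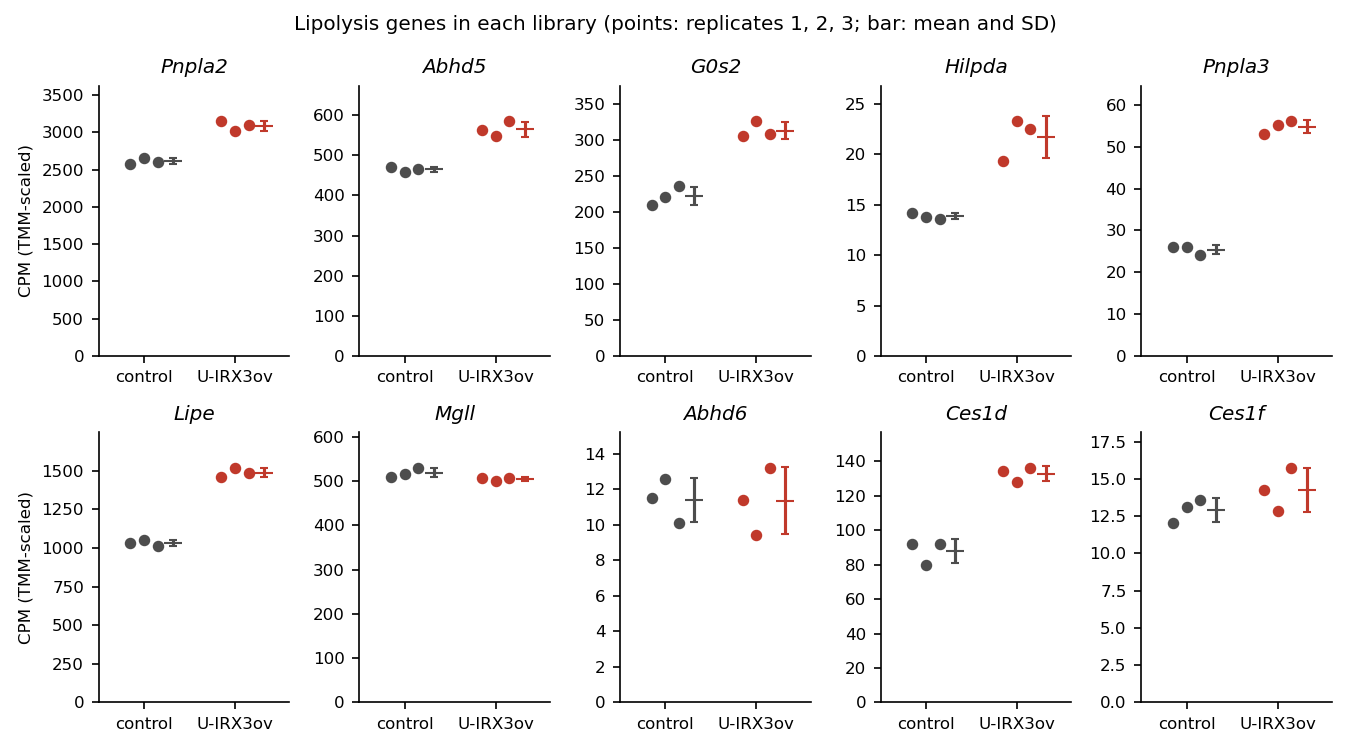
CPM (TMM-scaled, linear axis from 0) of the 10 lipolysis genes in each of the 3 control and 3 U-IRX3ov libraries, as points, with the mean and SD beside them. The U-IRX3ov points lie above the control points for the 7 genes that rose, at most 2.16-fold by the fitted values (Pnpla3), while Mgll points are close together and those of Abhd6 and Ces1f overlap. Scaled to adipocyte markers, Pnpla2 and Abhd5 were lower in U-IRX3ov.

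The upstream sequences of 3 genes are shown because they span the range of the results: Pnpla3 had the largest rise, its close relative Pnpla2 the smallest rise that passed, and Mgll no change that passed. Each is the 250 bases before a RefSeq transcription start (GRCm38.p6), 5′ to 3′ on the plus strand, with matches to the motifs searched in capitals. RefSeq promoter windows matched 8 of the 10 genes, and none was used for Ces1d or Ces1f. Mgll has 2 windows, of which the upstream one is printed. The other, mostly within an annotated exon, held the hypoxia response core ACGTG at -158.
Pnpla3, chr15:84167566-84167815: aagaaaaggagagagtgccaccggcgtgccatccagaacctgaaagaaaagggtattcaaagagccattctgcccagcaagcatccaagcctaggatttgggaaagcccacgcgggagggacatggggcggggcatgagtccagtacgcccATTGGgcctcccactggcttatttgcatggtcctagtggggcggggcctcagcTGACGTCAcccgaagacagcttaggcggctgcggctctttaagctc
Pnpla2, chr7:141454938-141455187: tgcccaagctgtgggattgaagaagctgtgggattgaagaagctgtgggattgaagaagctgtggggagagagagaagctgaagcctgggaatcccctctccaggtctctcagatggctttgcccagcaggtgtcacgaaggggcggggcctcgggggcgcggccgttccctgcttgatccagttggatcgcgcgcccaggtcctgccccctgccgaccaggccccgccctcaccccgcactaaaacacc
Mgll, chr6:88724162-88724411: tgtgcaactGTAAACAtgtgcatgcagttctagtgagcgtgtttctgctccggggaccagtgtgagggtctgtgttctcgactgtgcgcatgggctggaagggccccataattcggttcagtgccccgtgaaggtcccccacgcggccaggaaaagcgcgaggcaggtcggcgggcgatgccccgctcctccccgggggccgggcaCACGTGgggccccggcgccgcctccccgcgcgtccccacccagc
Motifs were searched on both strands in these windows and in 32851 RefSeq windows of the same length. The Pnpla3 window held the full cyclic AMP response element TGACGTCA from position -46, counted back from the base before the start, and so do 1.55% of all windows. It contains the cyclic AMP half-site TGACG on both strands, found in 17.8% of windows. The Pnpla3 window also held the CCAAT box CCAAT on the reverse strand at -99 (33.8% of windows). The Mgll window held the E-box CACGTG at -44 (6.02% of windows), which contains the hypoxia response core ACGTG (16.6%), and the forkhead element TGTTTAC on the reverse strand at -241 (3.17%). The Pnpla2 window held no match to any of these, nor did any of the 3 hold the nuclear receptor half-site AGGTCA (14.0%), the Iroquois palindrome ACANNTGT (6.31%), the sterol response element TCACNCCAC (1.05%) or the TATA box TATAAA (12.4%). Windows not printed held some of the same motifs. Those of Lipe, which rose, held the E-box at -155 and the forkhead element at -119. The Lipe E-box also contains the hypoxia response core ACGTG. A Hilpda window that lies partly within an annotated exon held this core at -43 (16.6% of windows). The Abhd5 window held AGGTCA at -69 and TGACG at -128, and windows of G0s2 and Hilpda also held TGACG. A match describes letters in a window and shows no binding, and a link between matches and fold changes was not tested.

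Per kilobase of annotated exon, the mRNA of the first enzyme of the pathway was by far the most abundant of the 10. The length used joins the exons of all annotated transcripts, 5886 bases for Lipe (8 transcripts) and 871 for G0s2 (1 transcript). Ranks and shares depend on that choice. By CPM alone, Lipe (1033 in control) lay above G0s2 (222). Pnpla2 stood at 864 ± 12.5 CPM per kilobase in control and 1021 ± 22.0 in U-IRX3ov cells (SD, n = 3). Its inhibitor gene G0s2 came next in both groups, at 255 ± 14.8 and 359 ± 13.2 CPM per kilobase, and Lipe followed at 176 ± 3.34 and 253 ± 5.20. Mgll (102 ± 2.06 and 99.3 ± 0.83), Abhd5 (78.2 ± 0.98 and 94.9 ± 3.18), Ces1d (37.2 ± 2.96 and 56.1 ± 1.89), Pnpla3 (16.4 ± 0.66 and 35.4 ± 0.99) and Hilpda (12.6 ± 0.28 and 19.7 ± 1.91) came lower. Abhd6 (4.83 ± 0.52 and 4.80 ± 0.80) and Ces1f (3.93 ± 0.24 and 4.34 ± 0.45) were the lowest, and these neighbours overlapped in U-IRX3ov libraries. The order of the 10 means was the same in both groups. Of the summed level per kilobase of the 10, Pnpla2 made up 55.8% ± 0.59 in control and 52.5% ± 0.96 in U-IRX3ov libraries, G0s2 16.4% ± 0.80 and 18.4% ± 0.75, and Lipe 11.3% ± 0.24 and 13.0% ± 0.31.

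**Figure D2:**
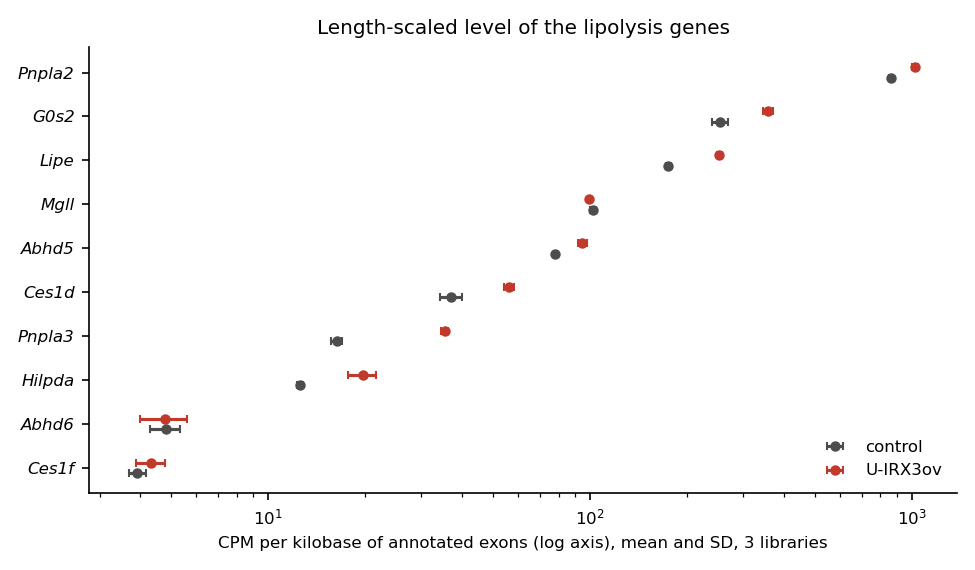
Level of each lipolysis gene in CPM per kilobase of annotated exons (log axis), as mean and SD of 3 libraries per group. Pnpla2 stands highest at 864 in control and 1021 in U-IRX3ov cells, and Ces1f and Abhd6 lowest, under 5.

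Pnpla2 and its coactivator gene rose by small and similar amounts, while the inhibitor genes rose more. Pnpla2 had 2579.8, 2652.5 and 2599 CPM in control libraries 1, 2 and 3 and 3148, 3015 and 3091 CPM in U-IRX3ov libraries 1, 2 and 3. Every U-IRX3ov library lay above every control library. The fold was 1.18 (log2 fold change 0.24 ± 0.03 SE, edgeR adjusted p = 1.14e-06). This call was lost in a test against a 1.2-fold change (adjusted p = 0.988), and scaled to adipocyte markers the log2 fold change was -0.13 (adjusted p = 0.00346). Abhd5 had 471, 459.7 and 465 CPM in control and 564, 547 and 585 CPM in U-IRX3ov libraries, again without overlap. It rose 1.21-fold (log2 0.28 ± 0.03, edgeR adjusted p = 1.90e-07), was lost against a 1.2-fold change (adjusted p = 0.426) and stood at -0.09 (adjusted p = 0.0439) scaled to adipocyte markers. Within a library, the log2 ratio of Abhd5 to Pnpla2 counts averaged -2.49 ± 0.04 (SD, n = 3) over control libraries and -2.45 ± 0.04 over U-IRX3ov libraries. The difference was 0.04 ± 0.03 (SE), the groups overlapped, and it did not pass (exact two-sided permutation p = 0.4).

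G0s2, the inhibitor of ATGL that is abundant in fat, had 209.8, 220.1 and 235 CPM in control and 304, 325 and 307 CPM in U-IRX3ov libraries. All U-IRX3ov libraries were higher. G0s2 rose 1.41-fold (log2 0.49 ± 0.04 SE, edgeR adjusted p = 1.66e-10), and by 0.13 on the log2 scale (adjusted p = 0.0128) relative to adipocyte markers. Hilpda, the hypoxia-inducible inhibitor of ATGL, was far less abundant. Its CPM were 14.2, 13.8 and 13.6 in control and 19.3, 23.3 and 22.6 in U-IRX3ov libraries, from 360 to 503 raw counts. U-IRX3ov library 1 was the lowest of its group and still above all controls. Hilpda rose 1.56-fold (log2 0.64 ± 0.09 SE, edgeR adjusted p = 4.97e-07), and by 0.27 (adjusted p = 0.00547) relative to adipocyte markers.

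The ratio of each inhibitor gene to Pnpla2 does not depend on how libraries are scaled. The log2 ratio of G0s2 to Pnpla2 was -3.62, -3.59 and -3.46 in control and -3.37, -3.21 and -3.33 in U-IRX3ov libraries. That of Hilpda to Pnpla2 was -7.50, -7.59 and -7.57 in control and -7.34, -7.01 and -7.10 in U-IRX3ov libraries. Both ratios were higher in every U-IRX3ov library, by 0.25 ± 0.07 and 0.40 ± 0.10 (SE of the difference). With 3 libraries a group the exact permutation test cannot go below p = 0.1, which both reached (0.133 adjusted over the 8 ratios computed), so neither difference could pass.

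Pnpla3 had the largest fold change of the 10. It encodes adiponutrin, the nearest relative of ATGL among the 10, a droplet protein with weak lipase activity that binds ABHD5. Its CPM were 26.0, 25.9 and 24.2 in control and 53.1, 55.2 and 56.1 in U-IRX3ov libraries, from 652 to 1381 raw counts. The lowest U-IRX3ov library was thus far above the highest control. Pnpla3 rose 2.16-fold (log2 1.11 ± 0.06 SE, 95% interval of the fold 1.98 to 2.35, edgeR adjusted p = 1.54e-14), and 98.4% of all genes tested had a lower log2 fold change. Relative to adipocyte markers the rise was 0.74 on the log2 scale (adjusted p = 4.22e-13). The log2 ratio of Pnpla3 to Pnpla2 averaged -6.68 ± 0.06 (SD, n = 3) over control libraries and -5.81 ± 0.07 over U-IRX3ov libraries, 0.87 ± 0.05 (SE) higher and without overlap (exact two-sided permutation p = 0.1, the smallest possible).

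Of the enzymes after ATGL, Lipe rose and Mgll did not pass. Lipe had 1029.9, 1054.5 and 1016 CPM in control and 1458, 1519 and 1486 CPM in U-IRX3ov libraries. The gap between the groups was many times the spread within them. Lipe rose 1.44-fold (log2 0.53 ± 0.03 SE, edgeR adjusted p = 4.80e-13), and by 0.16 (adjusted p = 7.41e-04) relative to adipocyte markers. Its log2 ratio to Pnpla2 was higher in every U-IRX3ov library, at -1.34 ± 0.02 (SD, n = 3) over control libraries and -1.05 ± 0.06 over U-IRX3ov libraries (exact two-sided permutation p = 0.1, the smallest possible).

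Mgll, which also breaks down the endocannabinoid 2-arachidonoylglycerol, had 509.8, 516 and 530.3 CPM in control and 507, 499.5 and 507 CPM in U-IRX3ov libraries. All U-IRX3ov values were slightly below all control values. The log2 fold change of -0.04 ± 0.03 (SE) did not pass (edgeR adjusted p = 0.358), with a 95% interval of 0.926 to 1.02 for the fold. Against the adipocyte markers, which rose, Mgll was lower by that scaling (log2 -0.41, adjusted p = 6.12e-12). The log2 ratio of Mgll to Lipe was -1.01, -1.03 and -0.94 in control and -1.52, -1.60 and -1.55 in U-IRX3ov libraries, a difference of -0.57 ± 0.04 (SE). The groups did not overlap, and the test, at the smallest p it allows, did not pass (exact two-sided permutation p = 0.1, adjusted p = 0.133).

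Abhd6, another monoacylglycerol hydrolase, was near the bottom of the range. It had 11.5, 12.6 and 10.1 CPM in control and 11.4, 9.44 and 13.2 CPM in U-IRX3ov libraries, from 184 to 330 raw counts. The groups overlapped. The log2 fold change of -0.01 ± 0.12 (SE) did not pass (edgeR adjusted p = 0.974), with a 95% interval of 0.844 to 1.175 for the fold. The ratio of Abhd6 to Mgll differed by 0.03 ± 0.17 (SE; exact two-sided permutation p = 1). Scaled to adipocyte markers, Abhd6 was lower (log2 -0.38, adjusted p = 0.00305).

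The carboxylesterase genes Ces1d and Ces1f lie in a tandem cluster on chromosome 8, and Ces1d rose while Ces1f did not pass. Ces1d encodes a triglyceride hydrolase of the endoplasmic reticulum and lipid droplet found in liver and fat. It had 92.2, 80.03 and 92.1 CPM in control and 135, 128 and 136 CPM in U-IRX3ov libraries. Control library 2 was the lowest, and the groups were well apart. Ces1d rose 1.51-fold (log2 0.59 ± 0.05 SE, edgeR adjusted p = 5.23e-10), and by 0.22 (adjusted p = 1.43e-04) relative to adipocyte markers. Ces1f, a related esterase best known from liver, had 12.05, 13.1 and 13.6 CPM in control and 14.2, 12.8 and 15.8 CPM in U-IRX3ov libraries, which overlap. Its log2 fold change of 0.14 ± 0.10 (SE) did not pass (edgeR adjusted p = 0.249, 95% interval of the fold 0.963 to 1.27), and it was -0.23 (adjusted p = 0.0342) scaled to adipocyte markers. The log2 ratio of Ces1f to Ces1d was lower in every U-IRX3ov library, -2.77 ± 0.16 in control and -3.22 ± 0.10 in U-IRX3ov (SD, n = 3). The test gave the smallest p it allows, so this difference could not pass (exact two-sided permutation p = 0.1, adjusted p = 0.133). The other 6 genes of the cluster had at most 7 counts in any library (Ces1a). The 6 hepatocyte markers, such as Alb, had 5 to 11 counts per library in all.

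**Figure D3:**
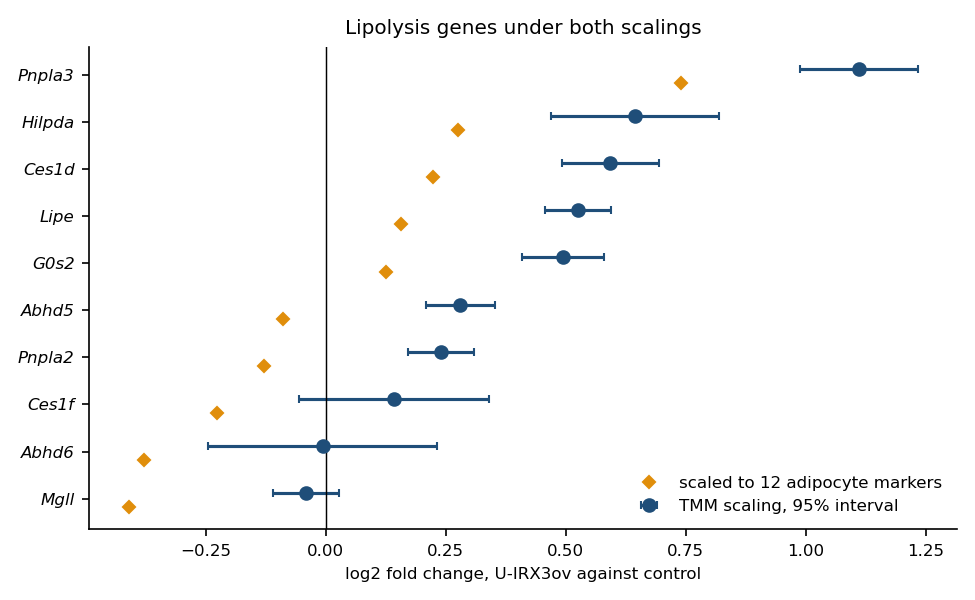
log2 fold change of each lipolysis gene, U-IRX3ov against control, under TMM scaling (circles, 95% interval) and with libraries scaled to the summed counts of 12 adipocyte markers (diamonds). Pnpla3 is highest under both, at 1.11 and 0.74, and Pnpla2, Abhd5 and Ces1f change sign to -0.13, -0.09 and -0.23.

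**Figure D4:**
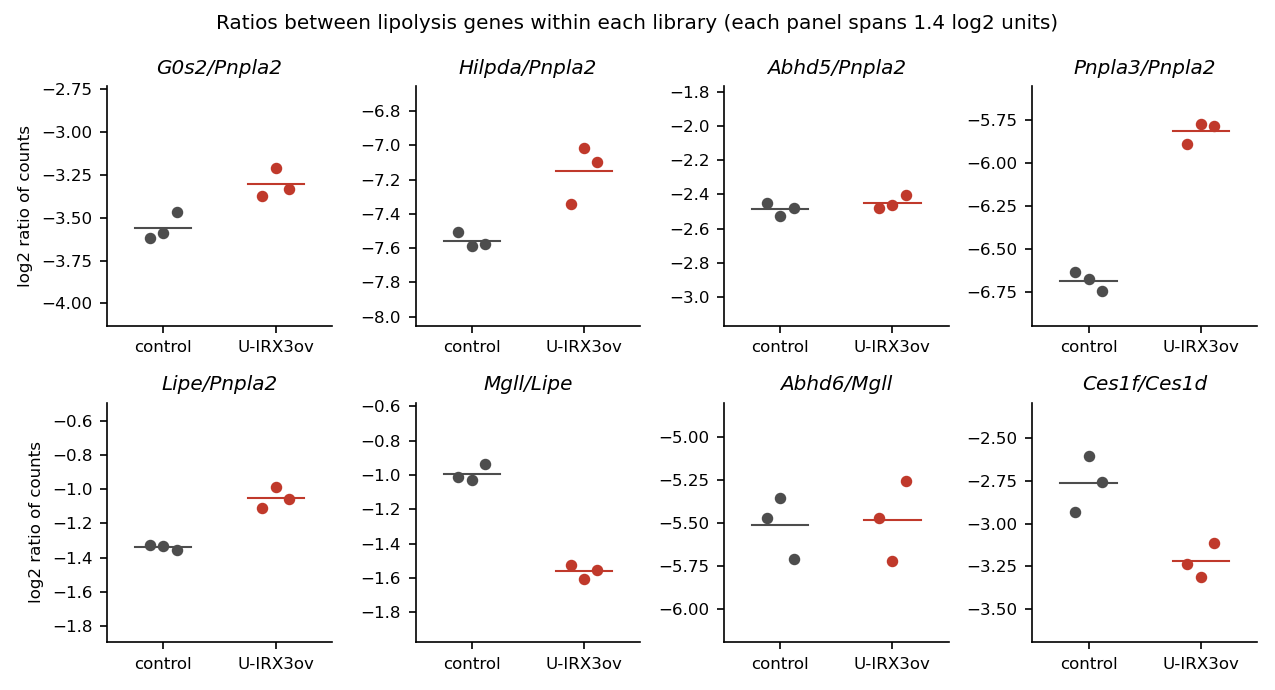
log2 ratio of counts between pairs of lipolysis genes in each library, with group means as lines. In 6 of 8 pairs the groups do not overlap, while Abhd5/Pnpla2 and Abhd6/Mgll overlap. Several pairs share a gene, and how often ratios of other gene pairs do not overlap was not computed.

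How far reads could be shared with other genes was measured from GENCODE M21 transcripts. No window of 50 bases from Pnpla2, G0s2 or Hilpda occurred in a transcript of another gene. For Ces1d the share was 1.08% and for Ces1f 0.903%, so few windows of this length are shared within their cluster or with other genes. It was 10.8% for Lipe and 15.1% for Abhd5, mainly through the antisense genes 4732471J01Rik (26 to 46 counts per library) and A730085K08Rik (0 to 2 counts). Pnpla3 (5.14%), Abhd6 (5.30%) and Mgll (1.36%) shared less than Lipe. Strandedness is not given, so reads of these partners cannot be told apart. In GRCm38 Pnpla2 lies on chromosome 7 at 141455198 to 141460743 (plus strand), Lipe on chromosome 7 at 25379527 to 25398710 (minus), Pnpla3 on chromosome 15 at 84167837 to 84187236 (plus) and Abhd5 on chromosome 9 at 122351608 to 122381524 (plus). G0s2 lies on chromosome 1 at 193272161 to 193273217 (minus), Hilpda on chromosome 6 at 29272488 to 29275446 (plus), Mgll on chromosome 6 at 88724412 to 88828360 (plus) and Abhd6 on chromosome 14 at 8002902 to 8056763 (plus). Ces1d lies on chromosome 8 at 93166068 to 93197838 and Ces1f at 93256236 to 93279747, both on the minus strand. All counts cover whole genes, and transcripts of a gene were not separated.

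Genes that carry signals to the lipases rose in 17 of 25 tested cases and fell in 3, against 20.2% and 21.1% of all genes tested (median log2 fold change 0.36). Adora1, the adenosine receptor that restrains cyclic AMP, rose by 1.37 ± 0.08 on the log2 scale (SE, edgeR adjusted p = 7.02e-14), Pde4d, which degrades cyclic AMP, by 1.05 ± 0.08 (adjusted p = 2.17e-11) and the insulin-signalling kinase Akt2 by 0.52 ± 0.04 (adjusted p = 6.00e-12). Npr3, the clearance receptor for natriuretic peptides, fell by 0.71 (adjusted p = 6.16e-14). Named after their values were seen, the beta-adrenergic receptor Adrb3 (0.41 ± 0.04), the protein kinase A subunit genes Prkar2b (0.41 ± 0.03) and Prkaca (0.36 ± 0.04), and the insulin-responsive phosphodiesterase Pde3b (0.60 ± 0.05) rose as well. Subunits of protein kinase A did not move in 1 direction. Prkar2a rose (0.15 ± 0.04), Prkar1a fell (-0.13 ± 0.03, edgeR adjusted p = 0.00273) and Prkacb did not pass (-0.10 ± 0.05). Besides Npr3 and Prkar1a, Prkg1 fell (-0.74 ± 0.08). With libraries scaled to adipocyte markers, 8 genes of this list were higher and 11 lower (4.72% and 66.6% of all genes).

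Droplet coat and scaffold genes rose in 8 of 14 tested cases and fell in 2 (median 0.20), where 20.2% and 21.1% of all genes did. Plin5, the perilipin of oxidative tissues that binds both ATGL and ABHD5, rose by 1.39 ± 0.06 (edgeR adjusted p = 3.59e-17), from 28.4 CPM in control. Plin1, which holds ABHD5 in resting cells, rose by 0.40 ± 0.04 (adjusted p = 4.77e-10), Plin2 by 0.37 ± 0.03 (adjusted p = 1.01e-09) and Aifm2 by 0.55 ± 0.04 (adjusted p = 1.94e-12). Cidea, a droplet protein typical of brown fat named after its value was seen, had the largest fold of the list, 10.6 (log2 3.41 ± 0.12, adjusted p = 3.06e-07). Relative to adipocyte markers, 3 of the list were higher and 7 lower (4.72% and 66.6% of all genes). Of 9 tested genes listed as other regulators of ATGL, 1 rose and 3 fell (median -0.02), a count near the 41.3% of all genes that passed. Serpinf1, which encodes the ATGL-binding secreted factor PEDF, fell by 0.34 (edgeR adjusted p = 6.66e-09). Cab39, whose tie to ATGL was not checked here, rose by 0.17 ± 0.04 (adjusted p = 3.47e-04). Vcp and Faf2, which remove or hold back proteins at the droplet, were -0.09 ± 0.04 and -0.10 ± 0.04 (adjusted p = 0.0411 and 0.0438). The Faf2 call was lost with DESeq2 and in each of the 6 fits without 1 library. That of Vcp was lost with DESeq2 and without control library 1 or 2 or U-IRX3ov library 1 or 2, and scaled to adipocyte markers all 9 were lower.

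Other neutral lipases and esterases did not move in 1 direction. Of 31 listed genes 16 were tested, 7 rose and 4 fell, against 20.2% and 21.1% of all genes tested (median 0.07). Ddhd2, a triglyceride lipase best known in brain, rose by 0.59 ± 0.04 (edgeR adjusted p = 2.47e-12), the mitochondrial phospholipase Pnpla8 by 0.33 ± 0.04 (adjusted p = 1.41e-08) and Pla2g16, an adipocyte phospholipase, by 0.35 ± 0.04 (adjusted p = 2.40e-08). Nceh1, a cholesterol ester hydrolase of macrophages, fell by 1.12 (adjusted p = 4.67e-09) in the same libraries in which 11 of 11 macrophage and leukocyte markers fell. The part of those cells in the fall was not tested. By the scaling to adipocyte markers, 1 gene of this list was higher and 11 lower (4.72% and 66.6% of all genes).

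Genes for the fate of glycerol and fatty acids rose in 12 of 15 tested cases and fell in 1, against 20.2% and 21.1% of all genes tested (median 0.42). Pck1, which makes glycerol phosphate precursors, rose by 1.41 ± 0.07 (edgeR adjusted p = 7.08e-15), from 14.4 CPM in control. The fatty acid binding protein gene Fabp4 rose by 0.56 ± 0.04 (adjusted p = 1.90e-12), Cpt2 of mitochondrial fatty acid import by 0.53 ± 0.04 (adjusted p = 2.15e-12) and Agpat2 of triglyceride synthesis by 0.48 ± 0.03 (adjusted p = 5.31e-12). Relative to adipocyte markers, 7 were higher and 5 lower (4.72% and 66.6% of all genes).

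Transcription regulators reported to act on lipase genes rose in 10 of 19 tested cases and fell in 2, against 20.2% and 21.1% of all genes tested (median 0.18). Ppara rose by 1.44 ± 0.05 (edgeR adjusted p = 4.21e-18), Mlxipl, the carbohydrate-responsive factor, by 0.89 ± 0.04 (adjusted p = 5.89e-16), Pparg by 0.61 ± 0.04 (adjusted p = 2.20e-13) and the coactivator Ppargc1a by 1.17 ± 0.08 (adjusted p = 9.18e-12). Named after their values were seen, Hif1a (-0.34 ± 0.04, adjusted p = 5.66e-08) and Snai1 (-0.53 ± 0.08, adjusted p = 2.33e-06) fell, and Foxo1 rose (0.51 ± 0.06, adjusted p = 1.20e-07). Hif1a encodes an activator of Hilpda in low oxygen. The other hypoxia-inducible factor gene of this list, Epas1, rose (0.19 ± 0.04, edgeR adjusted p = 4.56e-04). The part of either gene in the rise of Hilpda was not tested. Scaled to adipocyte markers, 5 were higher and 10 lower (4.72% and 66.6% of all genes).

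**Figure D5:**
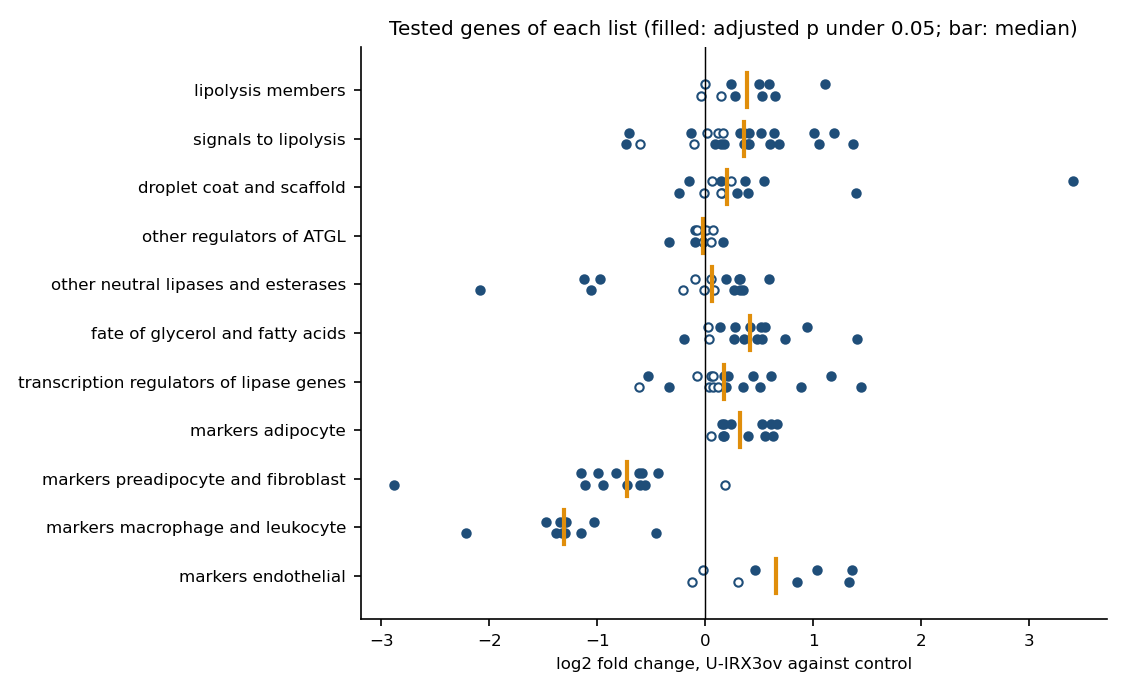
log2 fold change, U-IRX3ov against control, of each tested gene (points, filled where adjusted p is under 0.05) in the lipolysis genes, 6 lists of pathway genes and 4 lists of cell type markers, with medians as bars. The median was 0.39 for the lipolysis genes and 0.32 for adipocyte markers, against -0.73 for preadipocyte and fibroblast and -1.31 for macrophage and leukocyte markers, all under TMM scaling. Scaling to adipocyte markers shifts the median of all genes to -0.37.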

How the data were processed

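RNA sequencing of 6 libraries, 3 control and 3 U-IRX3ov, was deposited by the authors as 1 table of raw counts of reads for each gene symbol, not normalized, with column names equal to the library titles. Per the submitters' processing notes the aligner was HISAT2 2.0.4 and the build mm10. No source used here names the counting program, its annotation or the strandedness. The sample descriptions end in "combined", unexplained.

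The members and gene lists were chosen with earlier results of these data known. Of 46095 rows 24947 had a count, and filterByExpr of edgeR 4.0.16 (R 4.3.3) left 14757. Libraries were scaled by TMM and tested by edgeR's robust quasi-likelihood test on group alone, with p-values adjusted by Benjamini-Hochberg across the whole table. The SE is the log2 fold change divided by the square root of F. The biological coefficient of variation was 5.12%. Adjusted p-values come from the quasi-likelihood test except where another test, tool or scaling is named. Ratios used log2 of counts plus 0.5. Counting error covers reads as counted, with no molecular identifiers given. Lengths and coordinates are from GENCODE M21 (GRCm38, the assembly of mm10), and promoter windows from RefSeq. Chi-square per degree of freedom between libraries of 1 group was 2.99 to 5.20, more than counting noise. All 10 members are named, and from each pathway list the 4 tested genes with the smallest p. Plin1 and Cidec, Fabp4, Lpl, and Pparg and Cebpa stand in both a pathway list and the adipocyte markers. Alternatives were DESeq2 1.42.0 size factors and test, upper-quartile scaling, scaling to adipocyte markers, other filters, limma-voom (limma 3.58.1), a threshold of 0.01, testing against a 1.2-fold change, a replicate block and leaving out each library.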

Additional observations from a re-analysis of the deposited data

How the results depend on the processing

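Over 16 alternatives for each of the 10 genes, 153 of 160 values stayed on the same side of the threshold, with the same direction where called, 2 lost a call (Pnpla2 and Abhd5 against a 1.2-fold change) and 5 changed with scaling to adipocyte markers. That scaling reversed Pnpla2 to -0.13 and Abhd5 to -0.090, turned Ces1f, not called before, to a called -0.23, and brought Mgll and Abhd6 past the threshold. With that scaling 10520 genes were called (696 higher, 9824 lower, or 6.62% higher) against 6098 (48.8% higher) in the fit reported, and 10 of the 10 lipolysis genes, 5 in each direction. Against a 1.2-fold change 2616 genes and 5 lipolysis genes were called, because the test asks for a larger effect. Without 1 library, 5398 to 5701 genes and 7 lipolysis genes passed. The 4 calls among genes listed as other regulators of ATGL became 2 with DESeq2 or its size factors. They also became 2 in 4 fits without 1 library (control 1 or 2, U-IRX3ov 1 or 2), and 3 in the other 2 such fits. With scaling to adipocyte markers they became 9. The cause was not tested. The ratio of Abhd6 to Mgll, which did not pass, turned to -0.07 without control library 3 and -0.086 without U-IRX3ov library 3 (range -0.086 to 0.15). With the replicate number as a block 6173 genes and 7 lipolysis genes were called. Same-numbered libraries had correlations of -0.00117, 0.0948 and 0.0515. Across the groups, libraries numbered 2 and 3 correlated best with their own number, and those numbered 1 with number 3. The labels do not say that the numbers mark pairs, so they were not taken as pairs. Depth limits Abhd6, Ces1f and Hilpda most, at 184 to 503 counts per library.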
